A study of Mus musculus with 71 samples.

Results

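γδ intraepithelial lymphocytes (γδ IELs) of the duodenum and jejunum, the proximal segments of the small intestine, were compared between Btnl2-KO and wild-type (WT) mice by bulk RNA sequencing. The members were chosen by their labels alone, as the duodenal and jejunal γδ IEL libraries, and they are 15 of the 71 samples of the series. Btnl2-KO mice gave 3 duodenal and 4 jejunal libraries, and WT mice gave 4 of each. All mice were female C57BL/6 littermates from heterozygous crosses, cohoused and labelled as 10 weeks old, and received no treatment. Btnl2-KO mice (Btnl2-/- in the labels) lack the gene in the whole body, because a LacZ cassette joined in frame to its start codon, and a selection cassette behind it with the human Ubiquitin promoter, stop its transcription. The small intestine was cut into equal segments, IELs were taken from the epithelium with EDTA and a Percoll gradient, and CD45+ TCRβ- TCRγδ+ cells were sorted. Each library was a pool of 2 mice. The labels do not tie a duodenal pool to a jejunal pool, so libraries of both segments may come from the same mice, and p-values that treat the 15 libraries as independent may be too small.

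γδ IELs are T cells that live between the epithelial cells of the intestine, kill stressed or infected cells with granzymes and perforin, and carry receptors shared with NK cells. Butyrophilin-like (Btnl) proteins are members of the B7 and butyrophilin family of the immunoglobulin superfamily. In the mouse intestine, Btnl1 and Btnl6 on villus enterocytes select and maintain the Vγ7+ IELs, whereas Btnl2 has been described as an inhibitor of T cell activation and is likewise made by the epithelium. The comparison asks whether γδ IELs of the proximal intestine carry another transcriptome in mice without Btnl2, and whether any such effect differs between duodenum and jejunum or from the ileum.

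The targeted gene checked the labels. Btnl2 (identifier 547431 in the tables) lies on chromosome 17 (GRCm38, 34354822 to 34369495, plus strand, 9 exons in transcript Btnl2-201), and its start codon is in exon 2. The first 60 coding bases, all within exon 2, are shown because the LacZ cassette was joined in frame at the start codon, which is in capitals. The sequence is that of the GENCODE M21 reference transcript, not of the knockout allele.
Btnl2, chr17:34356222-34356281, plus strand: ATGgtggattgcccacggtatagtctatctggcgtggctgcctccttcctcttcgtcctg

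Btnl2 had at most 1 read in any Btnl2-KO library and was present in every WT library. In the duodenum the gene had 0, 0 and 0 reads in the Btnl2-KO libraries, where a count of 0 allows up to 0.16 to 0.185 CPM (a counts-per-million value, TMM-normalised), and 8.75, 7.48, 3.94 and 5.15 CPM in the WT libraries (6.33 ± 2.18, SD, n = 4). In the jejunum it had 0, 0, 0 and 0.0444 CPM (1 read) in the Btnl2-KO libraries and 4.75, 9.97, 3.71 and 6.01 CPM in the WT libraries (6.11 ± 2.74, SD, n = 4). The genotypes did not overlap in either segment. Against a floor of 3 reads over the group, Btnl2 was at least 109-fold lower in the Btnl2-KO duodenum, and the jejunal ratio of WT to Btnl2-KO was 546 (95% counting interval 97.6 to 21586). Intervals and floors cover counting error only. Btnl2 fell in the test across all genes, with a log2 fold change of -8.83 (SE 0.52, 95% interval -9.93 to -7.73) and an adjusted p of 2.603e-07 by edgeR's quasi-likelihood test with Benjamini-Hochberg adjustment, a fold change that depends on the prior count and is no bound.

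A single feature rose. It carries the identifier ID807225 in the customized genome that the authors mapped to, and no gene name is paired with it. It had 2.15, 1.24 and 0.587 CPM in the Btnl2-KO duodenum (1.32 ± 0.785, SD, n = 3) and 2.38, 1.71, 2.00 and 2.53 CPM in the Btnl2-KO jejunum (2.16 ± 0.371, SD, n = 4). All 8 WT libraries had 0 reads, so it was at least 29.1-fold higher in the Btnl2-KO duodenum and at least 69.2-fold higher in the Btnl2-KO jejunum. Its adjusted p was 0.004603 in edgeR's quasi-likelihood test. The ileal libraries, which were no part of this test, split the same way, with 36, 10 and 50 reads in the Btnl2-KO libraries and 0 in all 4 WT libraries. Within the duodenum alone and the jejunum alone, DESeq2 called it and edgeR's quasi-likelihood test did not.

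**Figure D1:**
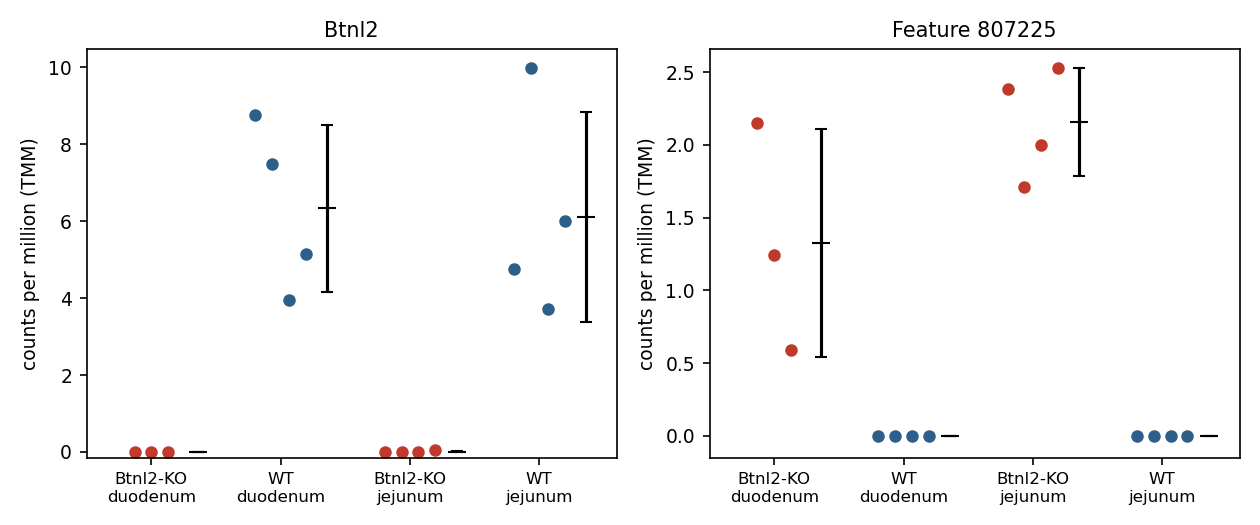
Level of Btnl2 and of the unnamed feature ID807225, in CPM, in each of the 15 libraries by segment and genotype. Points are libraries and bars are the mean ± SD. Btnl2 is near 0 in all 7 Btnl2-KO libraries and between 3.71 and 9.97 CPM in WT libraries, and ID807225 is 0 in all 8 WT libraries.

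No other gene passed. Of 12584 features tested, 1 was called lower (0.00795%) and 1 was called higher (0.00795%), at an adjusted p under 0.05 and a change above 1.5-fold, and the lowest adjusted p of the rest was 0.9995 in edgeR. At an unadjusted p under 0.05, 193 features were lower (1.53%) and 86 were higher (0.683%), together 279 (2.22%). The Btnl2-KO libraries of both segments lay below all WT libraries for 1 feature (0.00795%), Btnl2, and above all of them for 2 (0.0159%), ID807225 and Tmem29. The log2 fold change was positive for 5999 features (47.7%), with a median of -0.009 over all features tested. The 95% interval of the log2 fold change had a median half-width of 0.33 over all features and of 0.28 over the 8827 features with a mean of at least 10 CPM. It lay between -1 and 1 for 10483 features (83.3%) and within a 1.5-fold change in either direction for 8005 (63.6%). For these features a larger difference between genotypes was outside the interval, which may be too narrow because it treats libraries that may share mice as independent. It may also be too wide: the 279 features at an unadjusted p under 0.05 were fewer than the 1 in 20 that chance gives. Without Btnl2-KO jejunal library 2 such features were 668 of 12678 in edgeR. With all libraries they were 700 of 12584 in limma-voom with sample quality weights. Which of these limits weighs more was not tested.

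**Figure D2:**
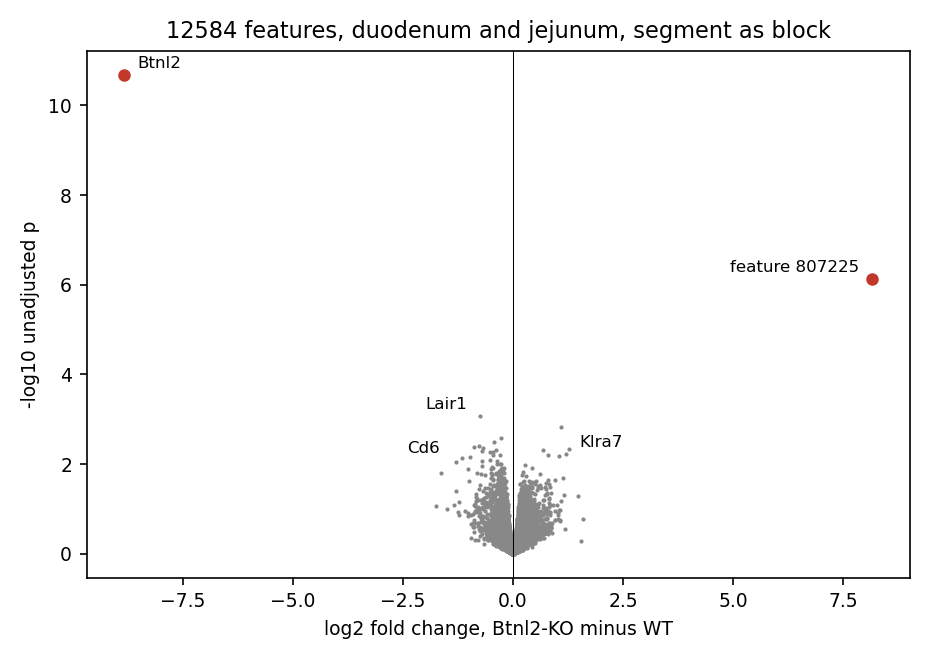
Log2 fold change of Btnl2-KO over WT (x axis) against -log10 of the unadjusted p (y axis) for the 12584 features tested in edgeR with segment as a block. Btnl2 and ID807225 are the features past the threshold and stand far from all others.

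Libraries differed in ways that the genotype labels do not give. The total count ranged from 13444964 to 30029485 for each library. The first principal component of the 1000 most variable genes took 70.1% of their variance and placed Btnl2-KO jejunal library 2 at 124 and library 3 at 47, WT jejunal library 3 at 31.9, and the others between -38.9 and 20. The second component took 10.8% of the variance and placed duodenal libraries between 5.29 and 26.1 and jejunal ones between -24 and 7.28. Epithelial transcripts moved with the first: the 12 pan-epithelial genes, such as Epcam, Vil1 and the keratins Krt8, Krt18 and Krt19, summed to 615 CPM in Btnl2-KO jejunal library 2, to 1538 CPM in library 3 and to 2058 CPM in WT jejunal library 3, against 2442 to 5914 CPM in the other 12 libraries. In Btnl2-KO jejunal library 2 the 16 enterocyte genes summed to 34.4 CPM, the 6 Paneth cell genes to 46 CPM and the α-defensins to 124 CPM, each the lowest of the 15 libraries.

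**Figure D3:**
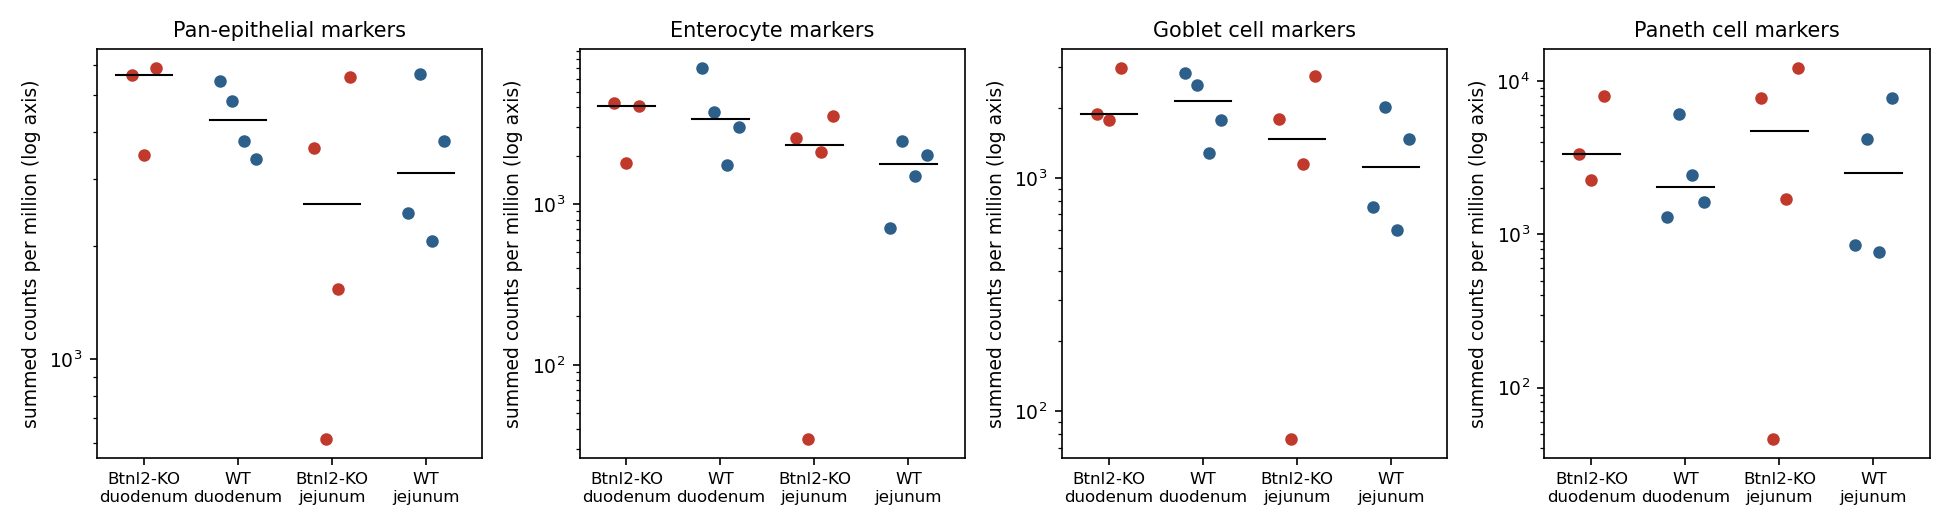
Summed CPM (log axis) of the pan-epithelial, enterocyte, goblet cell and Paneth cell lists in each library, by segment and genotype, with lines at the group medians. Btnl2-KO jejunal library 2 is the lowest in every panel, at 615 CPM for the pan-epithelial, 34.4 CPM for the enterocyte, 76 CPM for the goblet cell and 46 CPM for the Paneth cell list.

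The cells carried transcripts of IELs in both genotypes. Cd3e, which encodes the CD3ε chain of the T cell receptor complex, ranged from 1167 to 1929 CPM in Btnl2-KO and from 998 to 1936 CPM in WT libraries. Cd8a, the CD8α chain that γδ IELs carry as a homodimer, ranged from 1655 to 2468 CPM and from 1721 to 2525 CPM. Itgae, the αE integrin that binds E-cadherin on epithelial cells, ranged from 1146 to 2482 CPM and from 976 to 2334 CPM. All of these ranges overlapped. None of the 13 identity genes tested had an unadjusted p under 0.05, their log2 fold changes ran from -0.17 (Ptprc, the pan-leukocyte CD45) to 0.36 (Gzma), and their median was 0.07 against -0.009 over all features. For all 13 genes the 95% interval lay between -1 and 1. Genes of the T cell receptor γ and δ segments could not be matched by name and are not analysed here, so the γδ identity of the cells rests on the sort and not on these transcripts.

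TCR complex and proximal signalling genes had a median log2 fold change of -0.02, with 11 positive and 15 negative of 26 tested. None was called, and 3 had an unadjusted p under 0.05, all lower. Over all features tested, 1.53% were lower and 0.683% were higher at this p, the shares to set beside such counts in each list. The 3 were Cd6 and Cd5, surface receptors that tune T cell receptor signalling, and Ubash3a, which encodes a negative regulator of it. Cd6 (chromosome 19, 10789339 to 10830062) had 30.1, 16.6 and 18.0 CPM in the Btnl2-KO duodenum, 28.1, 29.2, 58.3 and 38.6 CPM in the WT duodenum, 42.0, 60.8, 29.8 and 33.9 CPM in the Btnl2-KO jejunum and 94.7, 47.4, 82.4 and 47.1 CPM in the WT jejunum. The genotypes overlapped in both segments, through Btnl2-KO duodenal library 1 and Btnl2-KO jejunal library 2. The log2 fold change of Cd6 was -0.77 (SE 0.23, 95% interval -1.25 to -0.28), and it stayed between -0.89 and -0.65 with each library left out in turn. Cd5 was scarce, with 0.694 to 4.66 CPM (median 1.75) in Btnl2-KO and 2.28 to 4.91 CPM (median 3.43) in WT libraries, and its log2 fold change was -0.82 (SE 0.30). Ubash3a had a log2 fold change of -0.36 (SE 0.16). The adjusted p of these 3 genes was 0.9995 in edgeR.

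Cytolytic effectors did not separate the genotypes. Of 21 tested, 11 were positive and 10 negative with a median log2 fold change of 0.02, and none had an unadjusted p under 0.05. All 21 intervals lay between -1 and 1, and 18 lay within a 1.5-fold change. Gzmb, the granzyme B protease, ranged from 6479 to 11710 CPM in Btnl2-KO and from 5895 to 13929 CPM in WT libraries. Prf1, the pore-forming perforin, had a log2 fold change of -0.21 (SE 0.13, 95% interval -0.49 to 0.07). Gzma, the granzyme A protease, had 20774, 25626 and 18133 CPM in the Btnl2-KO duodenum, 25313, 20531, 21001 and 26801 CPM in the WT duodenum, 27419, 20385, 61075 and 15287 CPM in the Btnl2-KO jejunum and 19139, 15628, 21806 and 16761 CPM in the WT jejunum. Btnl2-KO jejunal library 3 alone was far above the rest. The log2 fold change of Gzma was 0.36 (SE 0.27) with this library and 0.04 without it.

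NK cell receptors leaned higher in Btnl2-KO libraries, with 19 positive and 4 negative of 23 tested and a median log2 fold change of 0.31, and none was called. Without Btnl2-KO jejunal library 3 the median was -0.02, with 10 positive and 13 negative, so the lean rested on that library. Klra7 (chromosome 6, 130218605 to 130233322) and Klra6, Ly49 receptors for MHC class I, were the 2 with an unadjusted p under 0.05. Both were higher, as were 0.683% of all features at this p. Klra7 had 5.14, 22.2 and 30.0 CPM in the Btnl2-KO duodenum, 6.32, 6.23, 9.58 and 10.2 CPM in the WT duodenum, 8.29, 4.55, 30.9 and 14.4 CPM in the Btnl2-KO jejunum and 7.28, 5.55, 7.37 and 5.53 CPM in the WT jejunum. Of the 7 Btnl2-KO libraries, 4 lay above all WT libraries and 3 did not. The log2 fold change of Klra7 was 1.21 (SE 0.38, 95% interval 0.40 to 2.01) and 0.88 without Btnl2-KO jejunal library 3, and that of Klra6 was 0.80 (SE 0.32). The Ly49 genes are near-identical copies that share reads, so the level of any one of them is uncertain. Klre1, an NK lectin-like receptor, had 176 CPM in Btnl2-KO jejunal library 3 and 20.6 to 74.4 CPM in the other Btnl2-KO libraries, against 20.3 to 37.6 CPM in WT libraries. Its log2 fold change was 0.81 with that library and 0.08 without it. Cd160, a receptor that binds MHC class I and HVEM, had 2425 CPM in the same library, and its log2 fold change was 0.27 with it and 0.07 without it.

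Inhibitory and costimulatory receptors, immediate-early genes and homing receptors held no called gene and none with an unadjusted p under 0.05. The median log2 fold change of the 21 inhibitory and costimulatory receptors was -0.03, and the lowest was that of the costimulatory receptor Cd28 (-0.53, SE 0.48). Havcr2, the inhibitory receptor TIM-3, had a log2 fold change of -0.32 (SE 0.21). The 29 immediate-early genes, which T cells induce within minutes to hours of stimulation, had a median of 0.03 and ranged from -0.34 (Irf4) to 0.50 (Atf3). Egr3, induced by T cell receptor signals, had a log2 fold change of 0.43 (SE 0.26). Homing, retention and egress genes leaned lower, with 9 positive and 16 negative of 25 and a median of -0.11.

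Cell cycle genes had a median log2 fold change of 0.05, with 28 positive and 15 negative of 43 tested and none called. The median was 0.23 in the duodenum and -0.12 in the jejunum. Pcna, the sliding clamp of DNA replication, was the 1 member with an unadjusted p under 0.05, at 0.31 (SE 0.14, 95% interval 0.01 to 0.62). It had 160, 182 and 202 CPM in the Btnl2-KO duodenum, 152, 183, 170 and 153 CPM in the WT duodenum, 184, 128, 293 and 163 CPM in the Btnl2-KO jejunum and 134, 142, 132 and 150 CPM in the WT jejunum. The highest level was that of Btnl2-KO jejunal library 3 and the lowest that of Btnl2-KO jejunal library 2, and its log2 fold change ran from 0.16 to 0.38 with each library left out in turn. Mcm5, a subunit of the replicative helicase, had a log2 fold change of 0.14 (SE 0.12). Without Btnl2-KO jejunal libraries 2 and 3, 38 of 43 genes were positive with a median of 0.25, 4 had an unadjusted p under 0.05, all higher, and none was called. In that fit 234 of all 12797 features (1.83%) were higher at this p. The libraries left out held the lowest summed cell cycle levels, at 2036 and 2218 CPM, and no WT library was left out. This raises the Btnl2-KO level of the list by construction. With all 15 libraries kept, limma-voom with quality weights gave 38 positive and 5 negative and a median of 0.24. In that fit 2 members were higher at an unadjusted p under 0.05, as were 158 of all 12584 features. The cause of this lean was not tested.

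**Figure D4:**
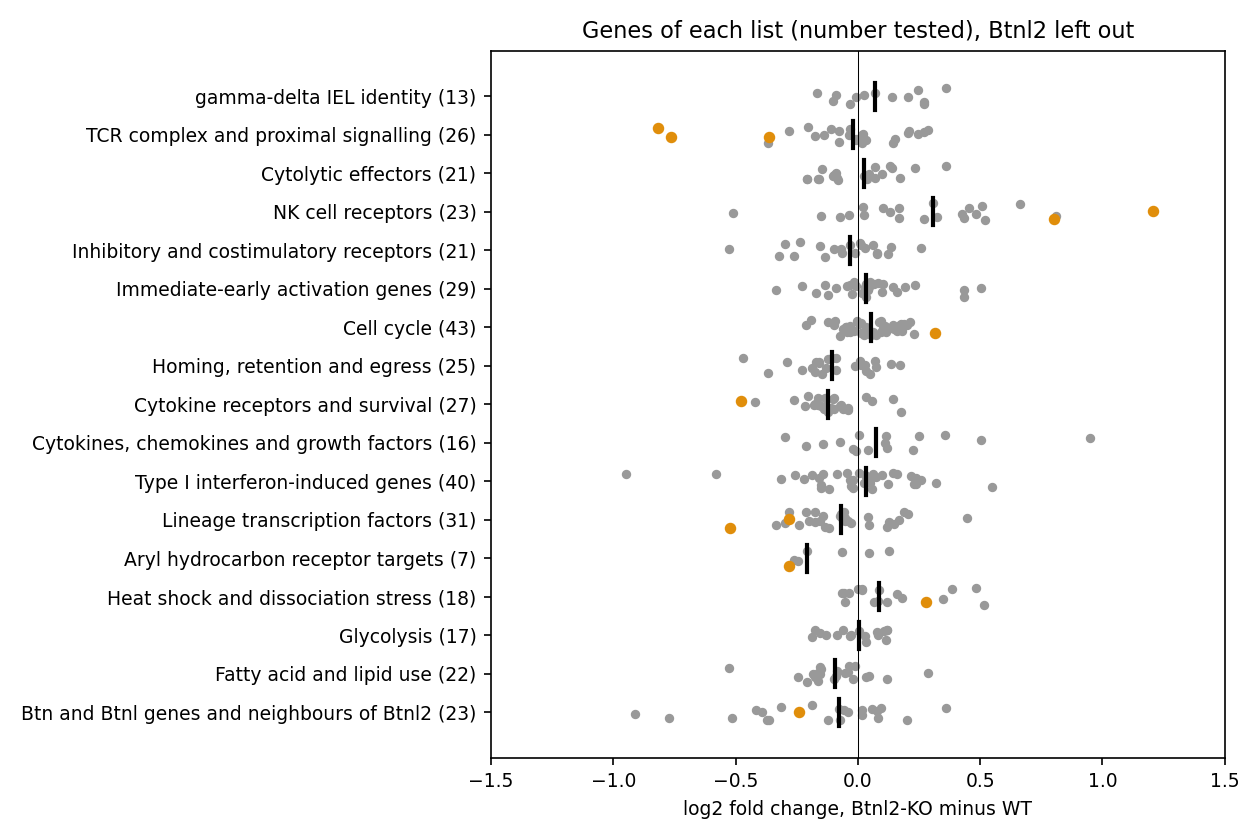
Log2 fold change of Btnl2-KO over WT for each gene of the lists, 1 row for each list, with Btnl2 left out. Orange points have an unadjusted p under 0.05 and black bars are the medians, which lie between -0.21 and 0.31 for the lists of T cell genes. No gene drawn was called.

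Cytokine receptor and survival genes were mostly below 0, with 4 positive and 23 negative of 27 and a median log2 fold change of -0.12. None was called and 1 had an unadjusted p under 0.05. All 27 intervals lay between -1 and 1 and 22 lay within a 1.5-fold change. That member was Il10ra, the ligand-binding chain of the IL-10 receptor, at -0.48 (SE 0.22), with 2.59 to 7.98 CPM (median 5.99) in Btnl2-KO and 4.24 to 11.6 CPM (median 7.89) in WT libraries. Il2rg, the common γ chain through which IL-15 sustains IELs, had a log2 fold change of -0.07 (SE 0.13), and the kinase Jak1 that pairs with it -0.20 (SE 0.11). The 16 cytokine, chemokine and growth factor genes had a median of 0.08 and none with an unadjusted p under 0.05. Ccl5, a chemokine stored by cytotoxic T cells, had a log2 fold change of 0.22 (SE 0.20). Tnf had -0.30 (SE 0.17) and the scarce T cell growth factor Il2 0.95 (SE 0.56). The 40 type I interferon-induced genes had a median of 0.03, with 23 positive and 17 negative, and none had an unadjusted p under 0.05.

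Lineage transcription factors leaned lower, with 9 positive and 22 negative of 31 and a median log2 fold change of -0.07. None was called, and 2 had an unadjusted p under 0.05, Prdm1 and Ahr, both lower, as were 1.53% of all features at this p. Prdm1 encodes Blimp-1, a repressor that promotes effector function and tissue residency. It lies on chromosome 10 (44437174 to 44528558) and had 39.2, 44.0 and 38.4 CPM in the Btnl2-KO duodenum, 46.9, 41.7, 52.2 and 41.1 CPM in the WT duodenum, 37.8, 56.7, 31 and 39.5 CPM in the Btnl2-KO jejunum and 93.2, 53.4, 82.8 and 64.0 CPM in the WT jejunum. In the jejunum 1 Btnl2-KO library, library 2, overlapped the WT range. Its log2 fold change was -0.52 (SE 0.16, 95% interval -0.87 to -0.18) over both segments, -0.16 in the duodenum and -0.81 in the jejunum, and the difference between segments, -0.66, did not pass (adjusted p = 0.5923 in edgeR). Ahr, the aryl hydrocarbon receptor, which maintains IELs and senses dietary ligands, had a log2 fold change of -0.28 (SE 0.13). The list of its targets, which also holds Ahr and its partner Arnt, had a median of -0.21, with 2 positive and 5 negative of 7. Ahr was the 1 member with an unadjusted p under 0.05. Gata3 had a log2 fold change of -0.21 (SE 0.11) and Id2, which supports innate-like lymphocytes, 0.13 (SE 0.17).

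Genes of stress and metabolism held no called gene. The 18 heat shock and dissociation stress genes had a median log2 fold change of 0.09, with 14 positive and 4 negative, and 16 intervals lay between -1 and 1. Dnajb1, a co-chaperone of Hsp70, was the 1 member with an unadjusted p under 0.05, at 0.28 (SE 0.10), and ranged from 154 to 242 CPM in Btnl2-KO and from 140 to 198 CPM in WT libraries. The 17 glycolysis genes had a median of 0.00, all 17 intervals lay between -1 and 1, and 16 lay within a 1.5-fold change. Gapdh had a log2 fold change of 0.12 (SE 0.11) and Ldha, lactate dehydrogenase A, 0.12 (SE 0.12). The 22 genes of fatty acid and lipid use had a median of -0.09, with 4 positive and 18 negative and none with an unadjusted p under 0.05. Of their intervals only 15 lay between -1 and 1, so a larger difference is not excluded for the rest.

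Genes of the Btn and Btnl family and neighbours of Btnl2 in the H2 region had a median log2 fold change of -0.10, with 8 positive and 16 negative of 24 tested. Apart from Btnl2 itself, none was called. Btnl1 had 0.90 to 26.1 CPM (median 15.3) in Btnl2-KO libraries, lowest in the jejunal library 2 that was low in epithelial transcripts, and 13.1 to 38.3 CPM (median 24.6) in WT libraries, with a log2 fold change of -0.77 (SE 0.45, 95% interval -1.74 to 0.19). Btnl6 had -0.51 (SE 0.59) and Btnl4 -0.06 (SE 0.80). Tap2, a subunit of the peptide transporter that loads MHC class I, was the 1 other member with an unadjusted p under 0.05, at -0.24 (SE 0.10), and its partner Tap1 had -0.19 (SE 0.09). The MHC class II genes H2-Aa, H2-Ab1 and H2-Eb1 had log2 fold changes of -0.37, -0.32 and -0.39. Btnl7, Btnl7-ps and Tsbp1 could not be matched by name.

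Btnl2 and its relatives are epithelial genes, so the epithelial cell libraries of the same series, labelled as from mice 7 weeks old and thus younger than the 10 weeks of the γδ IEL libraries, gave a reference. In CPM of the library total, WT epithelial cell libraries of duodenum and jejunum had 28.9 to 62.9 CPM of Btnl2 and 9196 to 14727 CPM of the pan-epithelial list. WT γδ IEL libraries had 3.95 to 10.9 CPM and 2191 to 6219 CPM. Btnl2 per 1000 CPM of the pan-epithelial list was 2.59 to 4.73 in the epithelial cell libraries and 1.04 to 1.95 in the γδ IEL libraries, and the ranges did not overlap. The pan-epithelial list holds Cdh1, which kept 375 CPM in Btnl2-KO jejunal library 2, so not all of its signal in γδ IEL libraries moved with the other epithelial genes. Both tables were made separately, the age and the cell fraction cannot be told apart, and whether the Btnl2 reads in WT γδ IEL libraries came from epithelial cells was not tested. In bulk libraries, fewer cells of a type and less RNA for each cell cannot be told apart.

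Markers of other cells were measured in the same libraries. The 12 pan-epithelial genes had a median log2 fold change of -0.04 and summed to 615 to 5914 CPM (median 3626) in Btnl2-KO and 2058 to 5693 CPM (median 3782) in WT libraries. The 16 enterocyte genes had a median of -0.26, with 3 positive and 13 negative, and the 7 goblet cell genes a median of 0.15. Without Btnl2-KO jejunal libraries 2 and 3, the pan-epithelial median was 0.36 (11 positive and 1 negative), the enterocyte median 0.08 (10 positive and 6 negative) and the goblet cell median 0.46, so the sign of the first and the second rested on these libraries. Both held the lowest pan-epithelial sums, and no WT library was left out. This raises the Btnl2-KO levels of epithelial genes by construction. All 6 Paneth cell genes were positive, with a median of 0.76 (1.13 without both libraries), and so were all 22 α-defensin genes tested, with a median of 0.80, although none had an unadjusted p under 0.05. α-defensins are antimicrobial peptides of Paneth cells, and their genes are near-identical copies that can share reads, so they are not independent. Their summed level was 124 to 28786 CPM (median 8977) in Btnl2-KO and 1828 to 19965 CPM (median 6287) in WT libraries, and the genotypes overlapped. Without Btnl2-KO jejunal library 2, 5 of 23 α-defensin genes had an unadjusted p under 0.05, all higher, with a median of 1.02, and none was called. In that fit 231 of all 12678 features (1.82%) were higher at this p. The library left out held the lowest α-defensin level, so leaving it out raises the Btnl2-KO level by construction. WT jejunal libraries 1 and 3, at 1828 and 1845 CPM, stayed in. With the mean levels of the pan-epithelial and Paneth cell lists as covariates, the α-defensin median was 0.14, with 18 positive and 4 negative. α-defensins are Paneth cell products, so a Paneth cell covariate takes out much of their difference by construction. The Paneth cell median itself was 0.03 in that fit. No difference of the α-defensins was established, and why their log2 fold changes were positive was not tested.

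B and plasma cell markers summed to 114 to 166 CPM in Btnl2-KO and 113 to 145 CPM in WT libraries, nearly all of it from Cd79b, while myeloid markers summed to 86.5 to 184 CPM and 87.7 to 222 CPM, led by Itgax, which IELs express. Itgam was the 1 marker of these lists with an unadjusted p under 0.05, at a log2 fold change of -0.41 (SE 0.19). Markers of αβ T cells summed to 17.2 to 52.6 CPM and 15.9 to 47.8 CPM, led by Cd8b1 (14.3 to 51.7 CPM and 14 to 45.3 CPM). Trac, Trbc1 and Trbc2 of αβ T cells, and Ighm, Igkc and Igha of B and plasma cells, could not be matched by name. These sums leave them out and do not show that such cells were scarce. Stromal and endothelial markers summed to 7.80 to 15.8 CPM and 5.47 to 20.4 CPM. Erythroid markers summed to 18.3 to 537 CPM and 40.8 to 1326 CPM, with a median log2 fold change of -0.21 (-0.94 without Btnl2-KO jejunal libraries 2 and 3). Mast cell markers summed to 71.5 to 187 CPM and 72.1 to 215 CPM, led by Kit, and all 4 tested were negative with a median log2 fold change of -0.72. Pax5 of B cells, S100a8 of myeloid cells, Cma1 and Tpsab1 of mast cells, and Dcn, Lum, Pdgfra and Des of stromal cells had 0 reads in all 15 libraries. Mcpt2, a protease of mucosal mast cells, had 0.776, 0.247 and 2.03 CPM in the Btnl2-KO duodenum and 5.14, 4.61, 5.64 and 7.49 CPM in the WT duodenum. The genotypes did not overlap there, whereas in the jejunum they did, with 5.04, 0.0389, 4.68 and 5.68 CPM in Btnl2-KO and 3.67, 13.4, 2.44 and 2.15 CPM in WT libraries. Over both segments its log2 fold change was -1.33 (SE 0.71, 95% interval -2.85 to 0.18). How many of all features separate the genotypes within the duodenum was not counted. DESeq2 on the duodenal libraries alone called 3 genes lower, Btnl2, Mcpt2 and Gm18853. Gm18853, named after its values were seen, had 2.21, 2.29 and 2.03 CPM in the Btnl2-KO and 16.3, 2.82, 11.6 and 19.6 CPM in the WT duodenum.

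Outside these lists, the genes with the lowest unadjusted p among those lower in Btnl2-KO libraries began with Lair1, an inhibitory receptor for collagen. Lair1 lies on chromosome 7 (4007073 to 4073567) and had 3.94, 3.77 and 2.78 CPM in the Btnl2-KO duodenum, 5.91, 7.91, 9.87 and 5.31 CPM in the WT duodenum, 6.50, 6.77, 7.68 and 6.08 CPM in the Btnl2-KO jejunum and 11.5, 7.96, 10.3 and 8.17 CPM in the WT jejunum. The genotypes did not overlap within either segment, although they did across segments. Lair1 was picked for its low p, and how many of all features separate within a segment was not counted. The log2 fold change of Lair1 was -0.74 (SE 0.18, 95% interval -1.12 to -0.36), with an adjusted p of 0.9995 in edgeR. The others were Map10 at -0.89 (SE 0.27), Ly6g5b at -0.70, Arrdc3, an α-arrestin, at -0.69, Mical2, an actin-oxidising enzyme, at -0.45, Usp40, a deubiquitinase, at -0.43, Rufy3 at -0.39 and Zmynd11, a reader of histone H3 methylation, at -0.28. None of them passed.

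Among genes higher in Btnl2-KO libraries, the lowest unadjusted p after ID807225 was that of Inca1, an inhibitor of cyclin-dependent kinase. Inca1 was scarce, with 0.437 to 1.49 CPM (median 0.813) in Btnl2-KO and 0.278 to 0.571 CPM (median 0.393) in WT libraries, and its log2 fold change was 1.10 (SE 0.29, 95% interval 0.49 to 1.71). Ramp3, a partner of calcitonin family receptors, had a log2 fold change of 1.28 (SE 0.39). Tmem29 (chromosome X, 150397775 to 150495036) had 15.4, 18.4 and 15 CPM in the Btnl2-KO duodenum, 12.9, 12.6, 13 and 13.2 CPM in the WT duodenum, 17.0, 13.4, 38.6 and 15.4 CPM in the Btnl2-KO jejunum and 10.7, 10.7, 10.3 and 11.4 CPM in the WT jejunum. All Btnl2-KO libraries lay above all WT libraries, and library 3 of the Btnl2-KO jejunum stood apart. Its log2 fold change was 0.68 (SE 0.21) and 0.41 without that library, with an adjusted p of 0.9995 in edgeR. The remaining genes were Hmga2-ps1 at 1.04, Synpo2, an actin-binding protein, at 0.80, Bbc3, the pro-apoptotic Puma, at 0.44 and Tmem35b at 0.23.

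The effect of Btnl2-KO was next compared between the segments, as the jejunal minus the duodenal log2 fold change. No gene was called, and the lowest adjusted p was 0.5923 in edgeR. At an unadjusted p under 0.05 there were 1031 of 12584 features (8.19%) in edgeR and 1045 in DESeq2. DESeq2 called 0 features, and limma-voom with sample quality weights called 423. The lowest unadjusted p was that of H3c1, a replication-dependent histone H3 gene. H3c1 had 3.94, 3.83 and 3.90 CPM in the Btnl2-KO and 7.64, 6.02, 4.33 and 7.49 CPM in the WT duodenum. In the jejunum the order was turned, with 5.15, 3.04, 6.24 and 3.64 CPM in Btnl2-KO and 3, 2.20, 2.44 and 1.98 CPM in WT libraries. The difference was 1.62 on the log2 scale. Rgs10, a regulator of G protein signalling, differed by 1.09, with a log2 fold change of -0.51 in the duodenum and 0.61 in the jejunum. Pcdhgc4, a protocadherin near its detection limit, differed by -3.80.

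The ileum entered only as the segment against which the proximal effect was tested, over all 22 γδ IEL libraries. The difference, the ileal log2 fold change minus the mean of the duodenal and jejunal ones, was called for no gene, with a lowest adjusted p of 0.3962 in edgeR, and 1533 of 12840 features (11.9%) had an unadjusted p under 0.05. The lowest were Igf2bp3, an RNA-binding protein, at 2.67, Rfx5, a factor of MHC class II promoters, at 1.02, and Pard6g, a cell polarity protein, at 1.76. In the proximal segments Rfx5 had a log2 fold change of -0.35 (SE 0.12) and Pard6g of -0.49 (SE 0.18). DESeq2 called 2 of these, Rfx5 and Pard6g, and limma-voom with quality weights called 1424 genes.

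The 20 genes that the study names for ileal γδ IELs were followed in the proximal libraries. They were chosen on ileal libraries of this series, so the direction of their ileal values is a description and no independent evidence. Over 18 of them the ileal log2 fold change was -2.82 to -1.94, with a median of -2.07. In the proximal segments none of the 18 tested was called or had an unadjusted p under 0.05. Of these, 12 were positive and 6 negative, from -0.30 (Ifi27l2b, an interferon-induced gene) to 1.06 (Wnt3, a Wnt ligand of Paneth cells), with a median of 0.23. The intervals were wide: none of the 18 lay between -1 and 1. Hoxb7 and Fabp6, the ileal bile acid-binding protein, were below the count minimum in the proximal libraries. The difference between ileum and proximal segments, which uses the ileal libraries that the genes were chosen on and is likewise a description, had a median of -2.24, against 0.028 over all features. Pan-epithelial genes moved with this list, with a median log2 fold change of -1.32 in the ileum and -0.04 in the proximal segments. Their part in the result was not tested.

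Wnt3 had 0.0778 to 5.68 CPM (median 1.91) in Btnl2-KO and 0 to 2.28 CPM (median 0.653) in WT libraries, and the genotypes overlapped. Nupr1, a stress-induced nuclear protein, had 0.234 to 22.5 CPM (median 5.87) in Btnl2-KO and 1.5 to 8.78 CPM (median 2.39) in WT libraries, and its log2 fold change was 1.05 (SE 0.62). Both genes were lowest among Btnl2-KO libraries in jejunal library 2 and highest in jejunal library 4, which also held the lowest and the highest Paneth cell level, at 46 and 12253 CPM. Ccl25, the epithelial chemokine that draws Ccr9+ lymphocytes into the small intestine, had a log2 fold change of -0.11 (SE 0.46). Without Btnl2-KO jejunal libraries 2 and 3, 18 of 19 genes of the list were positive with a median of 0.47, 3 had an unadjusted p under 0.05, all higher, against 1.83% of all features, and none was called. Library 2 held the lowest summed level of this list, at 19.4 CPM, and no WT library was left out. This raises the Btnl2-KO level of the list by construction.

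**Figure D5:**
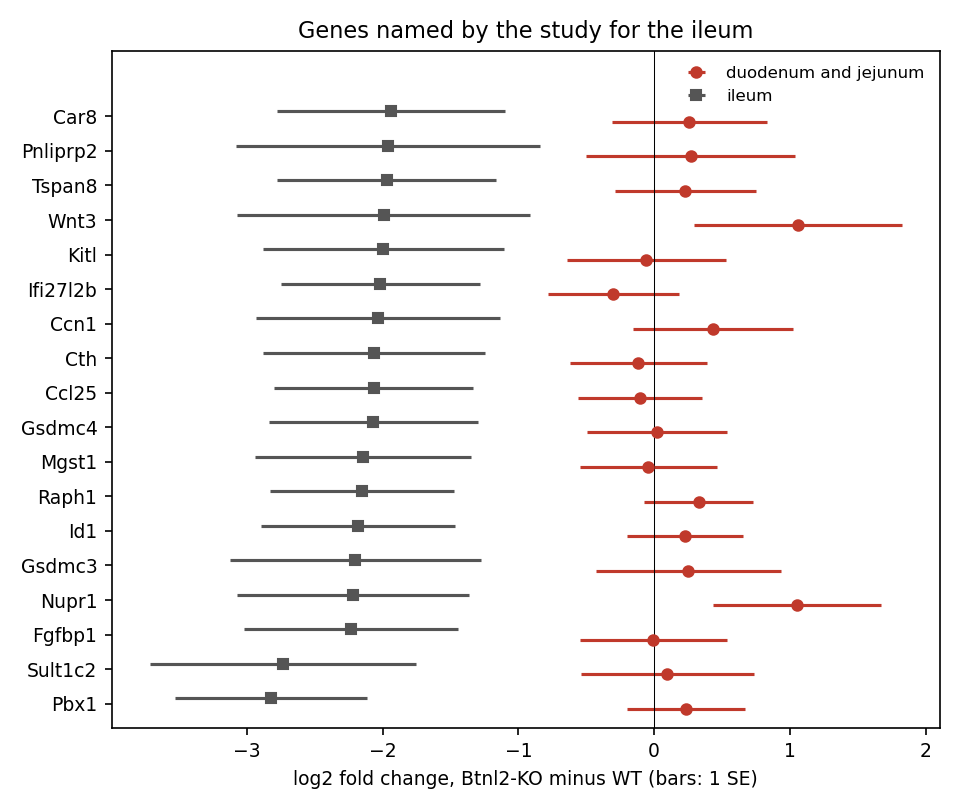
Log2 fold change of Btnl2-KO over WT in ileal and in proximal γδ IELs for the 18 genes tested of those the study names for the ileum. Bars are 1 SE. Ileal values lie between -2.82 and -1.94, and proximal values between -0.30 and 1.06.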

How the data were processed

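RNA of sorted duodenal and jejunal γδ IELs was sequenced by the authors. They used ArrayStudio and a customized genome of the mouse for mapping and deposited RSEM expected counts of sense-strand exon reads. GRCm38 is named in the submitters' processing notes. The paper and the labels give different library kits. Of 24475 identifiers, 24375 were named through RefSeq's GRCm38.p6 table. The other 100, with 0.253 to 2.39% of the counts, stayed in library sizes and tests. 1 column of no sample was not used. Of the deposited expected counts, 5% were not whole, and all were rounded.

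Libraries were grouped by their labels. edgeR 4.0.16 (R 4.3.3) fitted segment and genotype to features with at least 10 counts in at least 7 libraries, with TMM normalization and the quasi-likelihood test. Calls needed an adjusted p under 0.05 and a change above 1.5-fold. CPM are TMM-normalized. SE is the log2 fold change divided by the square root of F. Differences between segments were contrasts of group means. Replicate pairs differed beyond sampling noise (chi-square over degrees of freedom of 14.9 to 312 over 21 pairs), so none was merged. DESeq2 1.42.0, limma-voom 3.58.1, other filters, scalings and covariates, single segments and each library left out were tried. On simulated data for the comparison of genotypes over both segments (dispersion 0.1, 12499 genes), 66.7% of 99 genes changed by 1 and 100% of 95 changed by 2 on the log2 scale were called. There were 7 false calls. The simulation drew independent libraries at the same dispersion for all genes, without outlying libraries, and changed far more genes than were called here. It can therefore overstate the power for these data.

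The members were taken by their labels alone, but this comparison and the lists were chosen with earlier results of these data known. Btnl2, all called features, the features with the lowest unadjusted p up to 10 in each direction, and from each list the highest-expressed member and the 3 with the lowest unadjusted p were named, with the genes that the study names for the ileum and the 3 lowest of each difference between segments. Members outside this rule, such as Btnl1 and the extremes of a list, are named as examples and were chosen after their values were seen. Not every gene that this rule names is reported here.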

Additional observations from a re-analysis of the deposited data

Results flagged for a closer look

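Within groups of 4 libraries, 5 of 147 gene or list levels tested had 1 library far from the other 3, where chance gives about 1 in 20. Btnl2 was 0.0444 CPM in Btnl2-KO jejunal library 4 and 0 in the other 3, which is a single read. The 16 enterocyte genes summed to 34.4 CPM in Btnl2-KO jejunal library 2, against 2097 to 3542 CPM in the other Btnl2-KO jejunal libraries. The α-defensins summed to 19965 CPM in WT duodenal library 2, against 5399 to 6305 CPM in the other WT duodenal libraries. The type I interferon-induced genes summed to 2461 CPM in Btnl2-KO jejunal library 4, against 2942 to 3034 CPM in the others of its group. The heat shock and dissociation stress genes summed to 4600 CPM in WT jejunal library 1, against 5755 to 5966 CPM in the others of its group. The causes were not tested.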

How the results depend on the processing

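Across the settings tried for the comparison of genotypes, Btnl2 was called lower in each one, and the count of called features was 1 lower and 1 higher except in 3 settings. In edgeR on the duodenal libraries alone and on the jejunal libraries alone, 0 features were higher and ID807225 did not pass, whereas DESeq2 on the same libraries called it, 1 higher in each segment. The cause was not tested. In DESeq2 on the duodenal libraries alone, an alternative chosen after seeing the data, 3 were lower, Btnl2, Mcpt2 and Gm18853. Leaving out each library in turn gave 1 lower and 1 higher each time, and 0 called features for the difference between duodenum and jejunum and for that between ileum and proximal segments. For the difference between duodenum and jejunum, limma-voom with sample quality weights called 423 features and DESeq2 called 0. For the difference between ileum and proximal segments, limma-voom called 1424 and DESeq2 called 2. The cause was not tested. Without Btnl2-KO jejunal libraries 2 and 3, and with the pan-epithelial and Paneth cell levels as covariates, both chosen after seeing the data, 1 feature was lower and 1 higher. Of 4093 values of the 137 named genes over 30 settings, 3820 stayed within 1 SE on their side of the threshold, 269 moved by more, 2 lost and 2 gained the threshold, and 246 values of features that were not called changed sign.

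No paired analysis was possible because the labels carry no shared replicate numbers, and replicates were numbered in accession order. Groups held 3 or 4 pools. In the fit of all 15 libraries, the interval half-width was 0.33 at the median and 1.04 at the 90th percentile of features. It is the limit for an unadjusted p under 0.05, and a call at an adjusted p under 0.05 needed a larger change. Lair1, at a log2 fold change of -0.74 (95% interval -1.12 to -0.36), had an adjusted p of 0.9995 in edgeR. α-defensin and Ly49 genes share reads, and epithelial transcripts differed between libraries.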
